A study of Mus musculus with 13 samples.

Results

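The genes described are Il15 and Il7, which encode 2 cytokines of the common gamma-chain family, and Il7r, Il2rb and Il2rg, which encode 3 subunits of the receptors that bind them. They are 5 of the 561 genes of an nCounter mouse immunology panel and were taken by name, through their RefSeq identifiers. The nCounter system counts single RNA molecules through barcoded probes, with no amplification step. RNA came from intratumoral CD45+ cells, the leukocyte fraction, isolated on a magnet from CT26 colon carcinoma grown under the skin of female BALB/c mice. Of the 13 samples, 1 was taken at baseline, before RT, and the other 12 came from 3 arms followed through 4 phases, with a single sample per arm and phase. The arms were 0 Gy, 2 Gy × 5 (5 planned local X-ray doses of 2 Gy) and 7.5 Gy × 1 (a single local dose of 7.5 Gy), and every mouse in every arm, baseline included, carried a CT26 tumor. The labels name the phases PostRT1, PostRT2, Nadir and Regrowth. They were matched in order to the early (T2), middle (T7), late (T14) and progression (T21) phases of the study, where T counts days from the start of RT. How many of the 5 doses preceded T2 is not stated in the sources used here. The mice were 6 weeks old at tumor implantation. The methods give 3 mice per group, and whether a sample pools them is not stated, so no condition has a replicate here and a comparison of 2 samples carries no test.

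The receptors for IL-2, IL-4, IL-7, IL-9, IL-15 and IL-21 share the common gamma chain, the product of Il2rg, which they need to signal to lymphocytes. IL-7, made largely by stromal and epithelial cells, binds the IL-7 receptor alpha chain (Il7r) with the gamma chain and keeps naive and memory T cells alive. IL-15 is held on the IL-15 receptor alpha chain of myeloid cells and presented to the IL-2 receptor beta chain (Il2rb) with the gamma chain on NK cells and memory CD8 T cells. Il7r is known to be low on recently activated effector T cells, while Il2rb is high on NK cells, effector CD8 T cells and regulatory T cells. Both receptors signal through JAK1, JAK3 and STAT5.

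Promoter sequence was at hand for Il7r and Il2rg in a RefSeq table of windows from 250 bases before to 50 bases after each start (mouse GRCm38.p6). The stretches below are shown because each holds 1 match to ACNGGAAG, the core bound by ETS factors, a family that includes GABP, a known activator of Il7r in T cells. Both genes lie on the minus strand, sequences run 5′ to 3′ on that strand, and capitals mark the match. The motif was chosen after the windows had been read, both strands were searched, and no other motif was counted.
Il7r, chr15:9529906-9529935: ttttgctcagaCTTCCTGTttctggcactt
Il2rg, chrX:101268255-101268284: aggttctttccACCGGAAGctacgacaaaa
In Il7r the match is on the opposite strand and begins 48 bases before the start that the table uses, within the gene's annotated span (15: 9506159 to 9529941). In Il2rg it reads along the gene, begins 18 bases before the start, and the printed stretch ends at the gene's first base (X: 101264385 to 101268255). Of 32851 windows in the table, 2677 (8.15%) held the motif, so a match is a description of these letters only. Il15 lies at 8: 82331624 to 82403252, Il7 at 3: 7572028 to 7613760 and Il2rb at 15: 78479256 to 78511621.

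Total counts ranged from 166307 to 675847 per sample with a median of 241239, and 358 to 456 of the 561 genes were above the background of their own sample, the mean plus 2 SD of its 8 negative controls (6.23 to 18.3 counts). The labels of the deposited counts carry 3 serial numbers, taken here as 3 runs. Run 1 held T7 with T14 after 2 Gy × 5, run 2 both other arms of T14 with T21, and run 3 T2 with the baseline. Runs 2 and 3 carry the same date, and run 1 an earlier one. Positive controls had a geometric mean of 548 to 728 counts in run 1, 233 to 292 in run 2 and 537 to 876 in run 3, and for T7 against T2 the run and the phase cannot be told apart. Ptprc, which encodes CD45, was above background in 13 of 13 samples at 199.6 to 1873 normalized counts, and was lowest in the 0 Gy sample of T21. The CD45-negative marker list (Cdh5, Cxcl12, Fn1, Pdgfrb, Pecam1, Vcam1), of which macrophages also express some, summed to 1469 to 7482 normalized counts and was highest at T2 after 7.5 Gy × 1. Normalized counts are the authors' values, raw counts brought to an equal geometric mean of 14 housekeeping probes (789). Probes differ in efficiency, so a level of 1 gene is not set against that of another.

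Il15, the ligand presented to NK and CD8 T cells, was low before RT and had its highest value in the middle phase in every arm. After 2 Gy × 5 the later values were close to that of the middle phase. Baseline Il15 was 9.26 normalized counts from 7 raw counts, under the background of that sample. In the 0 Gy arm Il15 was 13.8 at T2, 56.0 at T7, 29.9 at T14 and 6.06 at T21, and the last pair (18 and 5 raw counts) lay at background. Il15 was thus highest at T7 in the unirradiated tumors too. After 2 Gy × 5 Il15 was 17.4, 61.9, 52.3 and 54.7 from T2 to T21, and after 7.5 Gy × 1 it was 29.9, 89.1, 34.8 and 25.0. Of the 6 irradiated samples of T7 to T21, 5 were above every baseline and T2 value, the exception being T21 after 7.5 Gy × 1, and the highest sample of the 13 was T7 after 7.5 Gy × 1.

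**Figure D1:**
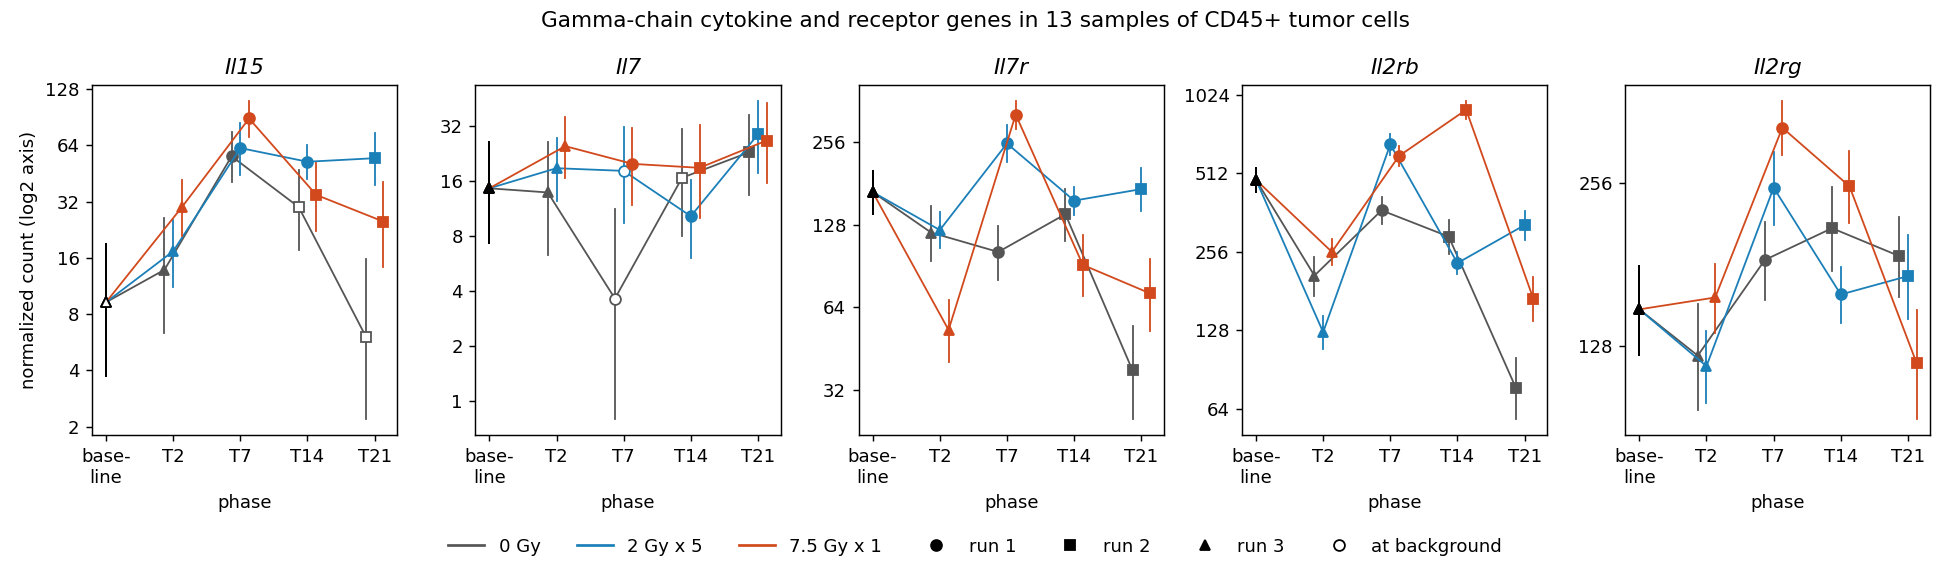
Normalized counts on log2 axes of Il15, Il7, Il7r, Il2rb and Il2rg by phase, 1 point per sample, with lines joining the samples of an arm and bars for the 95% Poisson interval of the raw count. Open symbols are counts at or under the background of their sample: 3 of 13 for Il15 and 3 of 13 for Il7. Il15 has its highest value at T7 in each arm, with close values at T14 and T21 after 2 Gy × 5. Il7r and Il2rb are lowest in the 0 Gy sample of T21, and Il2rb is highest at T14 after 7.5 Gy × 1.

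Differences between 2 samples are log2 ratios of normalized counts, with 95% intervals of the ratio of raw counts that cover counting error only, and a difference of 1 or more on the log2 scale (2-fold) is counted. In bulk RNA of a cell fraction, fewer cells of a type and less RNA per cell cannot be told apart. At T2, Il15 after 7.5 Gy × 1 was 1.11 above the 0 Gy sample (0.03 to 2.36), from 35 and 9 raw counts. At T7 it was 0.15 (−0.50 to 0.79) after 2 Gy × 5 and 0.67 (0.12 to 1.24) after 7.5 Gy × 1, against a median of 0.42 and 0.48 over the 415 genes above background. At T7 Il15 therefore stood at rank 293 and rank 160 of 415, in the body of the panel. At T21 the 0 Gy count of 5 was under background, so only bounds can be given. The bounds take the 0 Gy sample at its background of 15.5 counts and leave out the counting error of the other sample. As counted, Il15 was at least 2.61-fold higher after 2 Gy × 5 (40 raw counts). After 7.5 Gy × 1 (16 raw counts) it was at least 1.20-fold higher as counted. The 95% interval of those 16 counts was 9.15 to 26.0, so the 1.20-fold is not a firm lower limit. The same bounds at T14 were 1.72-fold, across runs, and 1.14-fold. The T14 intervals of the log2 ratio were 0.07 to 1.62 after 2 Gy × 5 and −0.72 to 1.19 after 7.5 Gy × 1. The interval after 7.5 Gy × 1 included 0, so no increase was shown there.

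The baseline was read in run 3 with T2. Every comparison of T7, T14 or T21 with baseline, here and below, is therefore across runs, and the part of the run was not tested. With the baseline sample at its background, Il15 at T7 was, as counted, at least 5.00-fold above it in the 0 Gy arm. The bounds were 5.54-fold after 2 Gy × 5 and 7.97-fold after 7.5 Gy × 1. At T14 and T21 after 2 Gy × 5 the bounds were 4.68-fold and 4.89-fold, and after 7.5 Gy × 1 they were 3.11-fold and 2.24-fold. Sums of marker lists are given beside Il15 as a description. The summed neutrophil markers (Csf3r, Cxcr2, S100a8, S100a9) were 1024 at baseline, 689 to 8067 at T2 and 17153 to 49625 at T7, and the summed interferon response genes (17 of 17 above background) were 5876 at baseline, 5227 to 7822 at T2 and 6955 to 23369 at T7. Summed monocyte and macrophage markers (10 genes) were 3536 at baseline, 1653 to 3531 at T2 and 8234 to 14266 at T7. At T2 after 7.5 Gy × 1 Il15 was the highest of its phase, and so was the interferon sum of 7822. The neutrophil sum of 689 and the monocyte sum of 1653 there were the lowest of all samples. At T7 in the 0 Gy arm the interferon sum of 6955 lay within the range of T2. The neutrophil sum of 17153 and the monocyte sum of 8234 lay above theirs. IL-15 is a known interferon-responsive gene of myeloid cells, and the part of any of these lists in the Il15 values was not tested.

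Il7, the ligand of the IL-7 receptor, stayed close to background throughout. Its raw counts were 3 to 29 over the 13 samples, and 10 of 13 were above the background of their sample. Baseline Il7 was 14.6 normalized counts. In the 0 Gy arm it was 13.8, 3.62, 16.6 and 22.9 from T2 to T21, after 2 Gy × 5 it was 18.8, 18.1, 10.2 and 28.7, and after 7.5 Gy × 1 it was 24.8, 19.8, 18.8 and 26.6. All but the 0 Gy sample of T7 lay between 10.2 and 28.7, the lowest and the highest of these being T14 and T21 after 2 Gy × 5, which differed by 1.49 on the log2 scale (0.51 to 2.48, across runs). The 0 Gy sample of T7 held 3 raw counts against a background of 17.5, so no fold is given for T7. The deposited values put both irradiated samples past 2-fold there. The 0 Gy sample of T14 (10 raw counts) was at background too, and no fold is given there. At T2 and T21 Il7 differed from 0 Gy by 0.21 to 0.84, and each of those 4 intervals included 0. CD45+ cells were selected, and Il7 levels of stromal cells were not measured.

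Il7r, the receptor for IL-7, was measured in all 13 samples (28 to 292 raw counts). Baseline Il7r was 168 normalized counts. The 0 Gy arm held 119.7, 102, 139.6 and 37.8 from T2 to T21. The 2 Gy × 5 arm held 122, 252, 156 and 172, and the 7.5 Gy × 1 arm 53.0, 321, 91.3 and 72.0. The highest values were the irradiated samples of T7, and the lowest were the 0 Gy sample of T21 and the 7.5 Gy × 1 sample of T2.

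At T2, Il7r after 7.5 Gy × 1 was −1.18 (−1.68 to −0.68) relative to 0 Gy, and after 2 Gy × 5 it was 0.03 (−0.36 to 0.43). It was 1 of 71 genes (17.1% of 415) lower by 2-fold in that sample, and Il15 was 1 of 15 (3.61%) higher, the counts of members being 1 and 1 of 5. After 2 Gy × 5 at T2 the count was 0 of 5 in either direction, where 2.65% of genes were higher and 5.54% lower. T cell markers were also low after 7.5 Gy × 1. Of 10 T cell genes on the panel, 9 had a mean count above background, but 3 of these 9 were at background in this sample. The sum of the 9 was 147 against 347 in the 0 Gy sample. Cd3e, which encodes a chain of the T cell receptor complex, was −1.39 (−2.24 to −0.56). The Il7r difference became −0.13 under scaling to those 9 genes and −0.43 under scaling to 6 pan-leukocyte genes (Cd48, Cd53, Ikzf1, Itgal, Itgb2, Ptprc). The part of the T cell markers in this difference was not tested.

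At T7, Il7r was above 0 Gy by 1.31 (0.92 to 1.71) after 2 Gy × 5 and by 1.66 (1.30 to 2.03) after 7.5 Gy × 1, at rank 41 and rank 30 of 415. It was the 1 of 5 members that counts above background put past 2-fold in each comparison. In the deposited values 19.3% and 22.2% of all genes were higher and 1.69% lower in each, genes at background included. Both Il7r differences lay above the medians of all genes, 0.42 and 0.48. They became 0.81 and 0.84 under T cell scaling, and 0.42 and 0.71 under pan-leukocyte scaling. In the 0 Gy sample 2 of the 9 T cell genes were at background.

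At T21, Il7r was above 0 Gy by 2.19 (1.59 to 2.83) after 2 Gy × 5 and by 0.93 (0.22 to 1.66) after 7.5 Gy × 1. The 0 Gy sample itself was low: it was −1.89 (−2.56 to −1.25) relative to the 0 Gy sample of T14, in the same run, and −2.15 (−2.80 to −1.55) relative to baseline. The 2 Gy × 5 sample of T21 was level with baseline at 0.04 (−0.33 to 0.40). The difference between the regimens at T21 was −1.26 (−1.78 to −0.76) for 7.5 Gy × 1 against 2 Gy × 5.

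Il2rb, the beta chain shared by the IL-2 and IL-15 receptors, ranged from 57 to 619 raw counts. Baseline Il2rb was 483 normalized counts, above 9 of the 12 later samples. The 0 Gy arm held 207, 369, 292 and 76.9 from T2 to T21, the 2 Gy × 5 arm 126, 660.1, 231 and 324, and the 7.5 Gy × 1 arm 255, 596, 897 and 169. The samples above baseline were both irradiated samples of T7 and the 7.5 Gy × 1 sample of T14, which was the highest of all.

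At T14, Il2rb after 7.5 Gy × 1 was above 0 Gy by 1.62 (1.37 to 1.87), rank 14 of 415, within 1 run. It was the 1 of 5 members past 2-fold there, where 11.8% of genes were higher and 0.723% lower. Il7r in the same comparison was −0.61 (−1.11 to −0.12), rank 17 from the lowest of 415. Relative to baseline the sample was 0.89 (0.71 to 1.08) for Il2rb and −0.88 (−1.34 to −0.43) for Il7r, so the genes encoding the beta chain and the IL-7 receptor chain parted by 1.77 on the log2 scale. The other 11 samples after baseline had a difference of −1.48 to 0.75 between them. Summed T cell markers were 603 in this sample and 296 in the 0 Gy sample, and summed NK markers were 329 and 178. Summed regulatory and CD4 T cell markers (Cd4, Ctla4, Foxp3, Icos, Ikzf2, Tnfrsf4) were 485 and 224. In the 0 Gy sample 3 of 9 T cell, 4 of 6 NK and 3 of 6 regulatory and CD4 genes were at background. After 7.5 Gy × 1 these numbers were 0, 1 and 0. The Il2rb difference became 0.60 under T cell scaling and 1.11 under pan-leukocyte scaling, and that of Il7r −1.63 and −1.12. The part of any of these cell types was not tested. At T21 Il2rb in this arm was −2.41 (−2.72 to −2.11) relative to T14, in the same run.

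**Figure D2:**
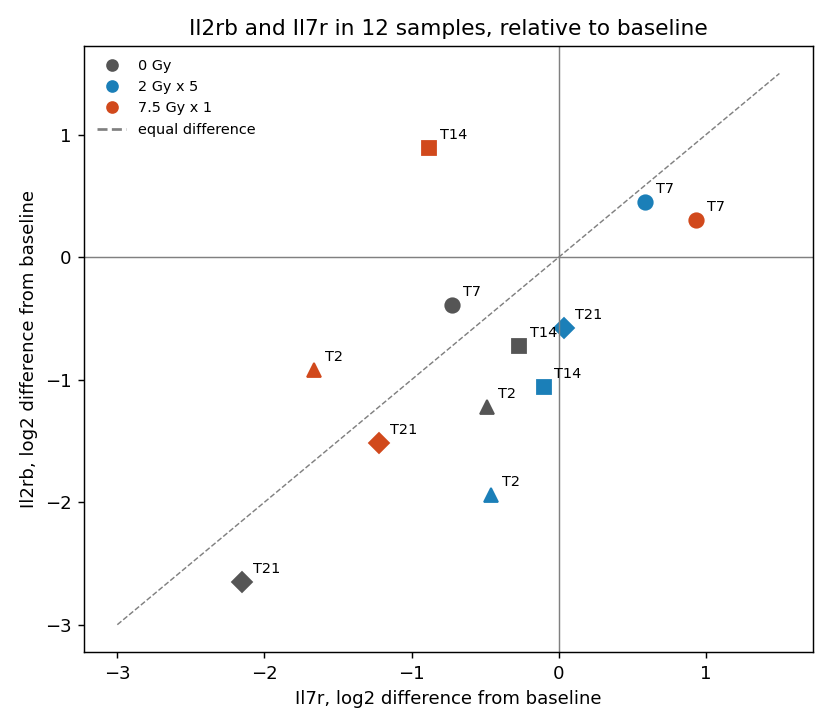
Log2 difference from baseline of Il2rb (vertical axis) against that of Il7r (horizontal axis) in the 12 samples after baseline, 1 point per sample, coloured by arm and labelled by phase, with a dashed line where both differ equally. The 7.5 Gy × 1 sample of T14 lies at −0.88 for Il7r and 0.89 for Il2rb, apart from the other 11, and the 0 Gy sample of T21 is lowest for both genes.

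At T2 and T14, 2 Gy × 5 left Il2rb under 0 Gy by −0.72 (−1.05 to −0.39) and −0.34 (−0.60 to −0.07, across runs). The count at T14 after 2 Gy × 5 was 0 of 5 members, with 15.9% of genes higher and 6.51% lower. At T7 Il2rb was 0.84 (0.62 to 1.06) above 0 Gy after 2 Gy × 5, rank 104 of 415, and 0.69 (0.49 to 0.90) after the single dose, rank 153. Those T7 values became −0.05 and −0.25 under pan-leukocyte scaling. At T21 Il2rb was 2.07 (1.65 to 2.52) and 1.14 (0.66 to 1.62) above a 0 Gy sample that was the lowest of the 13. The regimens differed in Il2rb at T2 by 1.02 (0.75 to 1.30) and at T14 by 1.95 (1.77 to 2.14, across runs), with 7.5 Gy × 1 the higher. Over the 4 phases, 5 of 20 member values differed by 2-fold between the regimens, with 7.5 Gy × 1 the higher for Il2rb at T2 and T14 and the lower for Il7r at T2 and for Il7r and Il15 at T21. The shares of all genes higher after 7.5 Gy × 1 were 4.34%, 3.61%, 12.5% and 0% from T2 to T21, and those lower were 14.2%, 0.964%, 9.88% and 18.6%.

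At T21, 3 of 5 members were 2-fold higher after 2 Gy × 5 (Il7r, Il2rb and, by its bound, Il15), where 35.2% of all genes were, and 1 of 5 (Il2rb) after 7.5 Gy × 1, where 14% were. The bound of Il15 after 7.5 Gy × 1 was under 2-fold. The shares of all genes are from the deposited values and include genes at background. No member was 2-fold lower, against 0.482% and 2.41% of genes. The medians over all genes were 0.71 and 0.21. Ptprc was 2.02 (1.76 to 2.29) and 1.10 higher in the same comparisons, close to the values of Il2rb. Under pan-leukocyte scaling, which includes Ptprc, Il7r became 0.23 and −0.13 and Il2rb 0.12 and 0.08, and Il15 became 1.06 and 0.84 from a 0 Gy count at background. The 0 Gy sample of T21 had 358 genes above background, the fewest of the 13. In it 6 of 9 T cell genes, 6 of 6 NK genes and 2 of the 6 pan-leukocyte genes used for scaling were at background. The part of a lower leukocyte share in the T21 differences was not tested.

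**Figure D3:**
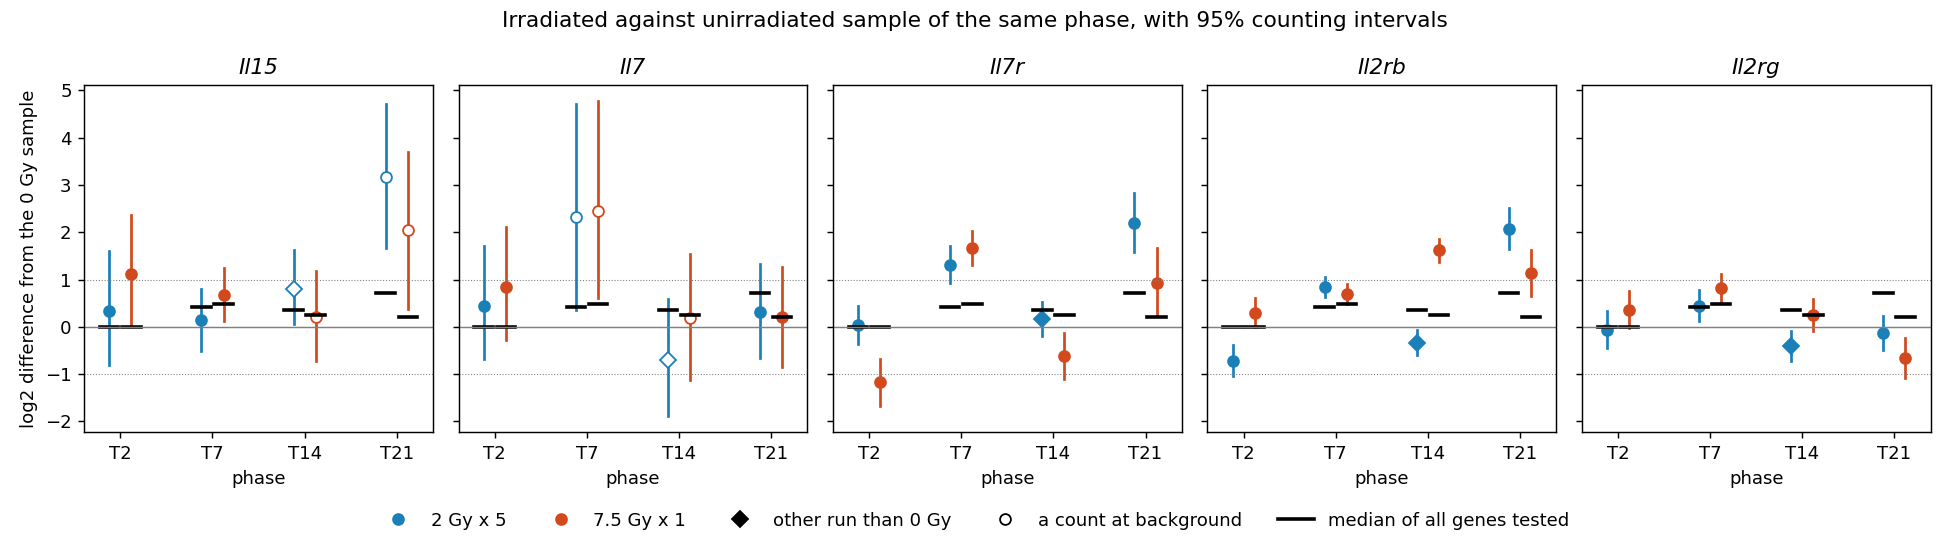
Log2 difference of each irradiated sample from the 0 Gy sample of its phase, with 95% counting intervals, and short black bars at the median of 415 genes. Dotted lines mark 2-fold, open symbols have a count at background, and diamonds were read in another run than their 0 Gy sample. Il7r lies past 2-fold at T7 in both regimens, Il2rb at T14 after 7.5 Gy × 1 and at T21 in both, and Il2rg never.

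Il2rg, the shared gamma chain, varied least in the deposited values. It was 149 normalized counts at baseline. The 0 Gy arm held 123, 184, 211 and 187 from T2 to T21, the 2 Gy × 5 arm 117, 251, 159 and 172, and the 7.5 Gy × 1 arm 157, 324, 252 and 119. Its highest value was 2.76 times its lowest, against 14.7 times for Il15, 7.92 for Il7, 8.51 for Il7r and 11.7 for Il2rb. The lowest Il15 and Il7 values were at background, so their ratios are not measured folds. Relative to 0 Gy it lay between −0.66 (T21, 7.5 Gy × 1) and 0.81 (T7, 7.5 Gy × 1), with none past 2-fold under the housekeeping scaling. At T7 the differences were 0.44 (0.11 to 0.77) and 0.81 (0.52 to 1.11), against medians of 0.42 and 0.48 over all genes, and they became −0.45 and −0.14 under pan-leukocyte scaling. At T21 they were −0.12 (−0.48 to 0.24) and −0.66 (−1.08 to −0.24), ranks 58 and 32 from the lowest of 415. The 0 Gy sample of T21, lowest of the 13 for Il15, Il7r and Il2rb, stood at 0.33 (−0.04 to 0.70) relative to baseline for Il2rg. The T21 differences of Il2rg became −2.08 and −1.71 under pan-leukocyte scaling, with 2 of the 6 scaling genes at background in the 0 Gy sample.

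**Figure D4:**
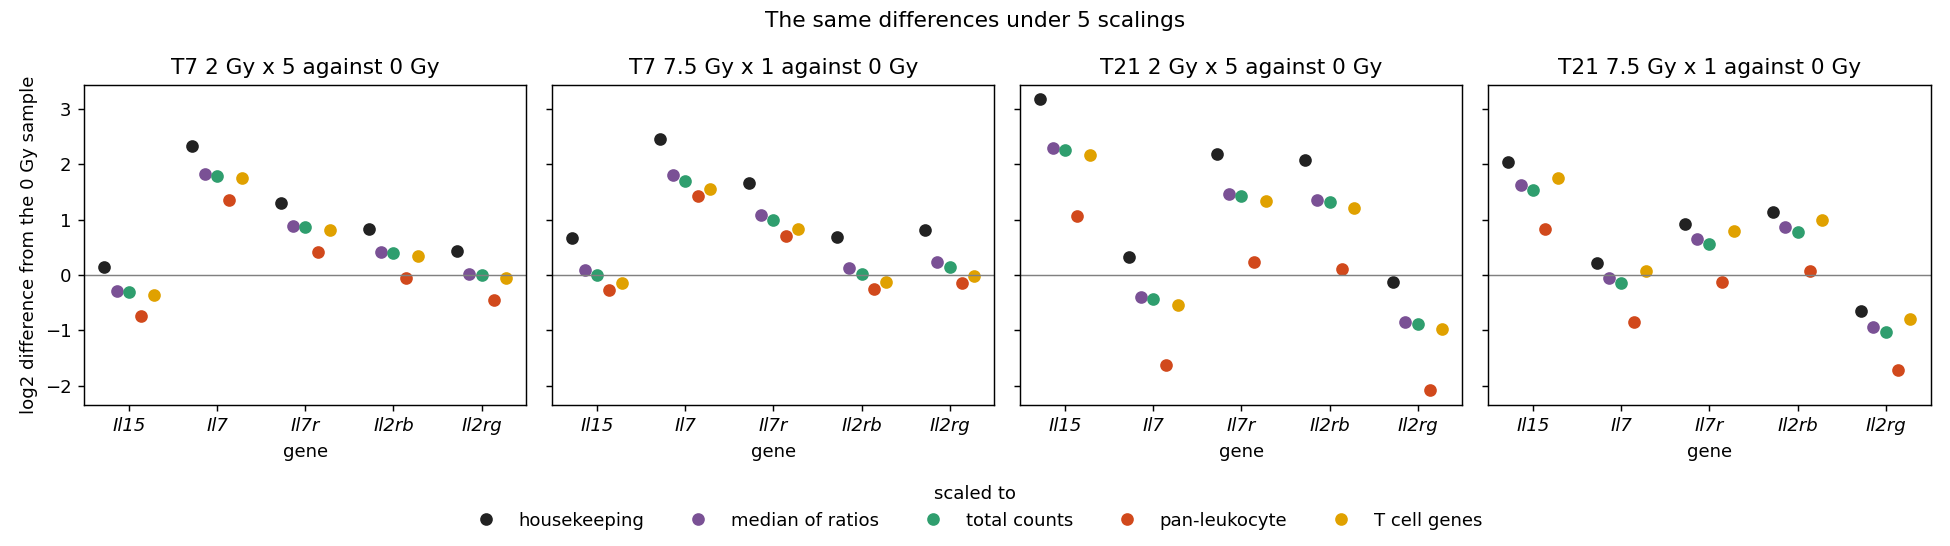
Log2 difference from the 0 Gy sample of the same phase at T7 and T21 for each gene, with the deposited housekeeping scaling and with 4 others (median of ratios, total endogenous counts, 6 pan-leukocyte genes, 9 T cell genes). The pan-leukocyte scaling gives the lowest value in each panel for most genes: Il2rb at T21 after 2 Gy × 5 goes from 2.07 to 0.12 and Il2rg from −0.12 to −2.08. Il7 at T7 rests on 3 raw counts, and 2 of the 6 pan-leukocyte genes were at background in the 0 Gy sample of T21.

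Over the 8 comparisons with 0 Gy, 12 of 40 member values were past 2-fold, 11 higher and 1 lower. In 8 of the 12 both counts were above background, in 3 the 0 Gy count was at background, and in 1 both counts were. With bounds in place of folds where the 0 Gy count was at background, 8 higher values and 1 lower remained past 2-fold. All comparisons of a phase share its 0 Gy sample. Against baseline, 10 of 60 values were 2-fold higher and 9 lower in the deposited values. In 9 of these 19 both counts were above background, in 9 one was at background and in 1 both were, and with bounds 9 higher and 8 lower values remained past 2-fold. Il15, whose baseline count was at background, gave 9 of the higher values and Il2rg at T7 after 7.5 Gy × 1 (1.11, 0.80 to 1.44) the other. Of the lower values, 5 were of Il2rb, 3 of Il7r and 1 of Il7 in its 3-count sample. Il2rb was lower at T2 in the 0 Gy arm (−1.22) and after 2 Gy × 5 (−1.94), at T14 after 2 Gy × 5 (−1.06), and at T21 in the 0 Gy arm (−2.65) and after 7.5 Gy × 1 (−1.51). In the order of the arms given first, 0.723%, 2.41% and 2.65% of genes were 2-fold above baseline at T2, and 5.78%, 12% and 25.1% were below. At T7 the shares were 19%, 37.6% and 41.7% above and 6.02%, 3.61% and 5.54% below. At T14 they were 13.3%, 21.2% and 20.5% above and 15.2%, 8.19% and 8.19% below, and at T21 5.06%, 18.1% and 8.92% above and 38.1%, 12.3% and 25.3% below.

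The arms were then compared over the 4 phases, and the phases over the 3 arms, in 1 additive edgeR fit of 12 samples, which takes phases and arms in place of replicates and scales by the bulk of genes (TMM). By edgeR's quasi-likelihood test, adjusted over 415 genes, 0 of 5 members passed 0.05 for either regimen against 0 Gy or for the regimens against each other, and DESeq2 and limma called 0 of 5 as well. By edgeR 1 member, Il2rb after 7.5 Gy × 1, had an unadjusted p under 0.05. Over all genes 0% passed for 2 Gy × 5, where 70 genes had an unadjusted p under 0.05 and DESeq2 called 40. For 7.5 Gy × 1 it was 1.2% (5 of 415, all higher), and for the regimens against each other 0%, with 26 genes unadjusted and 1 by DESeq2. That Il2rb difference was 0.76 (SE 0.35, adjusted p = 0.444 by edgeR), and Il2rb lay above 0 Gy in 4 of 4 phases. Leaving out the 7.5 Gy × 1 sample of T14 brought the difference to 0.34. The lowest adjusted p of a member was that of Il2rg after 2 Gy × 5 (−0.42, SE 0.25, adjusted p = 0.422 by edgeR). The 4 members other than Il2rb had differences of −0.42 to 0.62 in both regimens, with SE of 0.25 to 0.40.

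Between phases, Il7 was lower at T7 than at T2 by −1.32 (SE 0.44, adjusted p = 0.0209 by edgeR), where 26% of genes passed as lower and 27.2% as higher. The T7 counts of the 0 Gy and 2 Gy × 5 arms (3 and 12) were at background. The step in the 7.5 Gy × 1 arm, measured on both sides, was −0.32 in the normalized counts (−1.26 to 0.57), an interval that included 0. The call rests on low counts (3 to 18 at T7) and on the scaling: with the housekeeping factors the difference was −0.50 (adjusted p = 0.369) and with limma on the normalized values −0.77 (adjusted p = 0.249). It was lost without the 2 Gy × 5 or the 7.5 Gy × 1 sample of T2 (adjusted p = 0.0841 and 0.0760 by edgeR) and without the 0 Gy or the 7.5 Gy × 1 sample of T7 (0.0825 and 0.0607). Il15 at T7 against T2 was 1.01 (SE 0.41, adjusted p = 0.0527 by edgeR) and was higher in 3 of 3 arms in the normalized counts, by 2.02, 1.83 and 1.58. It passed with the housekeeping factors (1.81, adjusted p = 0.0102), where Il2rb (1.42, 0.0410) and Il2rg (0.93, 0.0206) passed as well, and Il7r did not (1.20, 0.0732). Which genes of the family passed from T2 to T7 therefore depended on the scaling. In the edgeR fit 4 of 4 neutrophil genes were higher at T7 than at T2 and 5 of 6 CD45-negative markers lower. The CD8 T cell list (Cd8a, Eomes, Gzma, Gzmb, Prf1, Tbx21) and the NK list, which share Eomes, each had 5 of 6 higher. Other T cell lists moved less: 2 of 9 T cell genes and 0 of 6 regulatory and CD4 genes were higher. Of the naive and memory T cell genes 0 of 4 were higher and 2 lower. The part of these lists in the member values was not tested. For T14 against T7 and T21 against T14, 0 of 5 members passed in edgeR. DESeq2 called Il7 at T21 against T14 (edgeR 1.31, SE 0.44, adjusted p = 0.0731), the 1 member with an unadjusted p under 0.05 there by edgeR. Of all genes, 4.82% and 1.93% passed as higher and 3.86% and 3.61% as lower.

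The rest of the pathway was followed through lists. Of the other gamma-chain family cytokines (Il2, Il4, Il9, Il21, Tslp), 5 were on the panel and 0 had a mean count above background. Tslp is a relative whose receptor pairs the IL-7 receptor alpha chain with the product of Crlf2 in place of the gamma chain. Il21, a product of helper T cells, reached 21 raw counts and was above background in 6 of 13 samples. Il2, the T cell growth factor, was at or under 9 counts and above background in 0 of 13. Of the other receptors, Il2ra, Il15ra, Il4ra and Crlf2 were above background on average, and Il21r, above in 0 of 13 samples at up to 14 counts, was not.

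Il2ra, the alpha chain of the high-affinity IL-2 receptor on regulatory and activated T cells, was 106 normalized counts at baseline. It was 79.8, 50.9, 31.6 and 31.0 in the 0 Gy arm from T2 to T21, 47.2, 124, 44.9 and 54.7 after 2 Gy × 5, and 29.9, 116, 75.4 and 26.6 after 7.5 Gy × 1. Relative to 0 Gy, Il2ra was lower at T2 after 7.5 Gy × 1 (−1.42, −2.08 to −0.77) and after 2 Gy × 5 (−0.76, −1.30 to −0.21), and higher in both irradiated samples of T7 (1.28 and 1.18). At T14 after 7.5 Gy × 1 it was higher (1.26, 0.47 to 2.10), where Il7r was −0.61. Il15ra, which holds IL-15 on the presenting cell, was 21.6 at T7 in the 0 Gy arm, 45.3 after 2 Gy × 5 and 61.6 after 7.5 Gy × 1. The 0 Gy value was at background, and the difference of 1.51 after 7.5 Gy × 1 (0.71 to 2.39) rests on it. Il4ra, the alpha chain that pairs with the gamma chain for IL-4, was 468 to 1902 normalized counts over the 13 samples, highest at T7 after 7.5 Gy × 1.

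Of 10 signalling genes (Jak1, Jak3, Stat3, Stat5a, Stat5b, Stat6, Socs1, Socs3, Cish, Bcl2) all were above background on average, and 0 of 10 passed the edgeR test for either regimen. Jak3, the kinase bound to the gamma chain, was 215 to 417 normalized counts, and Jak1, which binds the partner chains, was 355 to 1229. Bcl2, a survival gene downstream of IL-7, was −1.48 (−1.92 to −1.05) relative to 0 Gy at T14 after 2 Gy × 5, across runs, and 0.50 after 7.5 Gy × 1. Between T7 and T14, Socs3 was higher (0.99, SE 0.29, adjusted p = 0.0490 by edgeR) and Socs1 lower (−1.08, SE 0.30, adjusted p = 0.0414 by edgeR). Both are feedback inhibitors of cytokine receptors. Leaving out 1 sample at a time, the Socs3 call was lost in 9 of 12 refits and the Socs1 call in 6 of 12. Without the 0 Gy sample of T14 the adjusted p by edgeR was 0.248 and 0.152, and 0 genes of 415 passed. The Socs3 call was also lost with the housekeeping factors (0.54, adjusted p = 0.212 by edgeR). The 2 Gy × 5 arm alone had T7 and T14 in 1 run, and its step in the normalized counts was 0.09 for Socs3 (−0.05 to 0.24) and −1.49 for Socs1 (−1.74 to −1.24). No other gene of the pathway lists passed between phases.

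Over the 13 samples, the genes most like each member were found by Pearson correlation of log2 normalized counts among the genes above background, as a description over samples that share runs and a housekeeping scaling. Il15 correlated with Bst1 (0.89) and with Ptafr (0.89), the receptor of platelet-activating factor. Il2rb was most like Ikzf1 (0.94), a lymphoid transcription factor, Foxp3 (0.90), which defines regulatory T cells but was counted only 6 to 29 times, and Fyn (0.89), a kinase of T cell receptor signalling. Il7r was most like Cd69 (0.90), an early activation marker, Ccr7 (0.89), a homing receptor of naive T cells and dendritic cells, and Msr1 (0.89), a macrophage scavenger receptor. Il2rg was most like Ifng (0.86), Il27 (0.83) and Prf1 (0.83), the last a cytotoxic granule protein, and Ifng and Il27 were near background in part of the samples. Il7 was most like Traf1 (0.84), Ifngr2 (0.73) and Tlr3 (0.69). Among the members, Il7 correlated at −0.19 to −0.01 with the others, and the other 6 pairs at 0.41 to 0.65.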

How the data were processed

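The authors deposited unprocessed nCounter counts, 1 per probe and sample. The signal values are the normalized values deposited by the authors: counts multiplied by 1 housekeeping factor per sample, with values under the geometric mean of the negative controls set to it. This was read from the values (0 of 7293 off by over 0.02 or 0.1%). The software used is not given in the sources used here. Under housekeeping scaling, a change in the leukocyte share moves the leukocyte genes together. The floor lowered the 2 member values that it set, both of 0 Gy samples, and so widened differences from them. These were Il15 at T21 (6.74 to 6.06) and Il7 at T7 (3.82 to 3.62).

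RefSeq accessions gave 549 symbols for 561 genes. Genes with a mean count above 13.1, the mean background, were kept (415 of 547 endogenous). Folds were taken on the log2 scale, where a normalized value below 1 counts as 1. Intervals are exact conditional Poisson intervals at 95%. Counts were tested with edgeR 4.0.16 (TMM, quasi-likelihood, arm plus phase, 12 samples) with a threshold of 0.05. DESeq2 1.42.0, limma 3.58.1, other scalings, no filter, a pseudocount of 10 and leaving out each sample were alternatives. R 4.3.3, Python 3.11.15, pandas 2.3.3, scipy 1.17.1 and numpy 2.4.6 were used, and fits and intervals were tested on simulated data.

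The genes and all lists were chosen with earlier results of these data known. Besides the 5 genes, the text names the subunits that pair with them, the largest differences of the pathway lists, and the 3 genes most like each by Pearson correlation, of which 1 is not reported here.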

Additional observations from a re-analysis of the deposited data

Results flagged for a closer look

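Il2rg was above 0 Gy in both irradiated samples of T7 and under it in both of T21 with the housekeeping scaling. At T7 it was higher by 0.44 after 2 Gy × 5 and by 0.81 after 7.5 Gy × 1 on the log2 scale, and at T21 it was −0.12 and −0.66. The interval of −0.12 included 0, and the T7 value of 0.44 was close to the median of all genes, 0.42. Under pan-leukocyte scaling the T7 values became −0.45 and −0.14, so the signs no longer differed between the phases. Both irradiated samples share the 0 Gy sample of their phase, and the difference between phases was not tested.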

How the results depend on the processing

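The counts of genes passing over all genes tested moved with the tool. For 2 Gy × 5 against 0 Gy they were 0 with edgeR, 8 with DESeq2's size factors in edgeR, 40 with DESeq2 and 10 with no filter (547 genes). For 7.5 Gy × 1 against 0 Gy they were 5, but 0 with the housekeeping factors, 15 with DESeq2 and 0 with limma, and for the regimens against each other 0, but 1 with DESeq2. For T14 against T7 they were 36 (20 higher, 16 lower), 63 with DESeq2 and 53 (6 higher, 47 lower) with the housekeeping factors. For T21 against T14 they were 23 (8 higher, 15 lower), 56 (0 higher, 56 lower) with the housekeeping factors, 97 with DESeq2 and 64 with limma. For T7 against T2 the split of 113 higher and 108 lower became 183 and 21 with the housekeeping factors. Leaving out 1 sample gave 0 to 13, 0 to 6 and 0 to 0 calls for the 3 arm contrasts and 153 to 233, 0 to 53 and 0 to 66 for the phases in order. The cause was not tested. Of the 12 member values past 2-fold against 0 Gy, 10 stayed past with median-of-ratios scaling, 8 with total counts, 5 with pan-leukocyte genes, 8 with T cell genes, 12 with no floor and 11 with a pseudocount of 10, and 4 of the 12 had a count at background. Against other scalings the median of all genes moved by up to −1.96 (T21, 2 Gy × 5, pan-leukocyte genes). With the 4 other scalings in that order the sign changed in 7, 9, 14 and 11 of 40 values against 0 Gy and in 10, 14, 21 and 16 of 60 against baseline. Of those past 2-fold, none changed sign against 0 Gy and 3 did against baseline: Il7r at T2 after 7.5 Gy × 1 became 0.021 and at T21 after 7.5 Gy × 1 became 0.14 with T cell genes, and Il2rg at T7 after 7.5 Gy × 1 became −0.67 with pan-leukocyte genes. Low counts of Il7 (3 to 29) and, in part of the samples, of Il15 (5 to 92) limit what can be seen of the cytokines. No paired analysis was possible because each condition has 1 sample, and the sample labels number no replicates. The edgeR fit compared the arms within phases and had no term for the run. At T14 the 2 Gy × 5 sample was read in another run than the other arms, so its arm contrasts include that difference.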
